A study of Rattus norvegicus with 6 samples.

Results

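The beta-3 adrenergic receptor gene Adrb3 and 6 genes of heat-producing fat, namely Ucp1, Elovl3, Ppargc1a, Prdm16, Dio2 and Cidea, were read in aneurysms of the abdominal aorta of Sprague-Dawley rats. They make up 7 of the 24988 genes in the deposited table, and all 7 were found there by symbol. The 3 NP-treated libraries came from aneurysms given NP (a targeted nanotherapy, by the title of the series), and the 3 untreated libraries came from aneurysms without treatment. All animals therefore carried an aneurysm, and no healthy aorta was analysed here. The makeup of NP, the way the aneurysm was raised, and the age and sex of the rats are not stated in the labels. The 7 genes were chosen from earlier results of these same libraries, in which the difference in Adrb3 between treated and untreated aortas was already known. Their values between the groups are therefore given as a description, and nothing is supported with them.

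Brown and beige fat cells burn fuel to make heat, and fat of this kind lies around parts of the rodent aorta, not all of it. Noradrenaline from sympathetic nerves acts on beta-adrenergic receptors, which raise cyclic AMP and activate protein kinase A. In fat cells this releases fatty acids and switches on Ppargc1a, Dio2 and Ucp1. UCP1 is the mitochondrial proton channel that turns the burning of those fatty acids into heat. White fat cells of rodents also carry the beta-3 receptor, so its transcript alone does not mark heat-producing fat.

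Total counts ranged from 26100468 to 30939002 in NP-treated libraries and from 27680260 to 30759349 in untreated libraries. Markers of smooth muscle, the main cell of the aortic wall, were all measured and summed to 1838 to 4348 CPM (read counts scaled to a common library total) in NP-treated libraries and 2297 to 2583 CPM in untreated libraries. The 5 adipocyte markers Adipoq, Plin1, Cidec, Lep and Pparg summed to 46.6, 168 and 166 CPM in NP-treated replicates 1, 2 and 3, and to 483, 401 and 397 CPM in untreated replicates 1, 2 and 3. In such bulk tissue, fewer fat cells and less RNA per fat cell cannot be told apart. How far the fat content of each piece of tissue set the values below was not tested.

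Of the 7 genes, 5 passed the filter on low counts, and each of these had counts of 10 or more in libraries of both groups. Ucp1 and Elovl3 did not pass. Over all 16522 genes that passed, edgeR's quasi-likelihood test with Benjamini-Hochberg adjustment called 0 genes (0%), with a smallest adjusted p of 0.925, and 319 genes had an unadjusted p under 0.05. None of the 5 genes was thus called. DESeq2, run as an alternative, called 29 genes over the table, and Adrb3 was among them. The 3 NP-treated values lay below the 3 untreated values in 3.2% of all tested genes and above them in 2.48%. Among the 5 tested genes here this held for Adrb3 alone, below, and that separation was known when the gene was chosen.

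Adrb3 had the largest log2 fold change of the 5 tested genes. This receptor couples noradrenaline to fat breakdown in rodent fat cells. Adrb3 was at 1.99, 2.70 and 3.94 CPM in NP-treated replicates 1, 2 and 3, against 16.4, 12.5 and 25.8 CPM in untreated replicates 1, 2 and 3. The groups did not overlap, and the lowest untreated library held several times the highest NP-treated one. Behind these values stood 55, 77 and 112 counts in NP-treated libraries and 486, 344 and 781 counts in untreated libraries. The log2 fold change was -2.66 (SE 0.39, 95% interval -3.58 to -1.74), a level 6.32-fold lower in NP-treated aortas. With each library left out in turn, the log2 fold change stayed between -2.96 and -2.32.

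**Figure D1:**
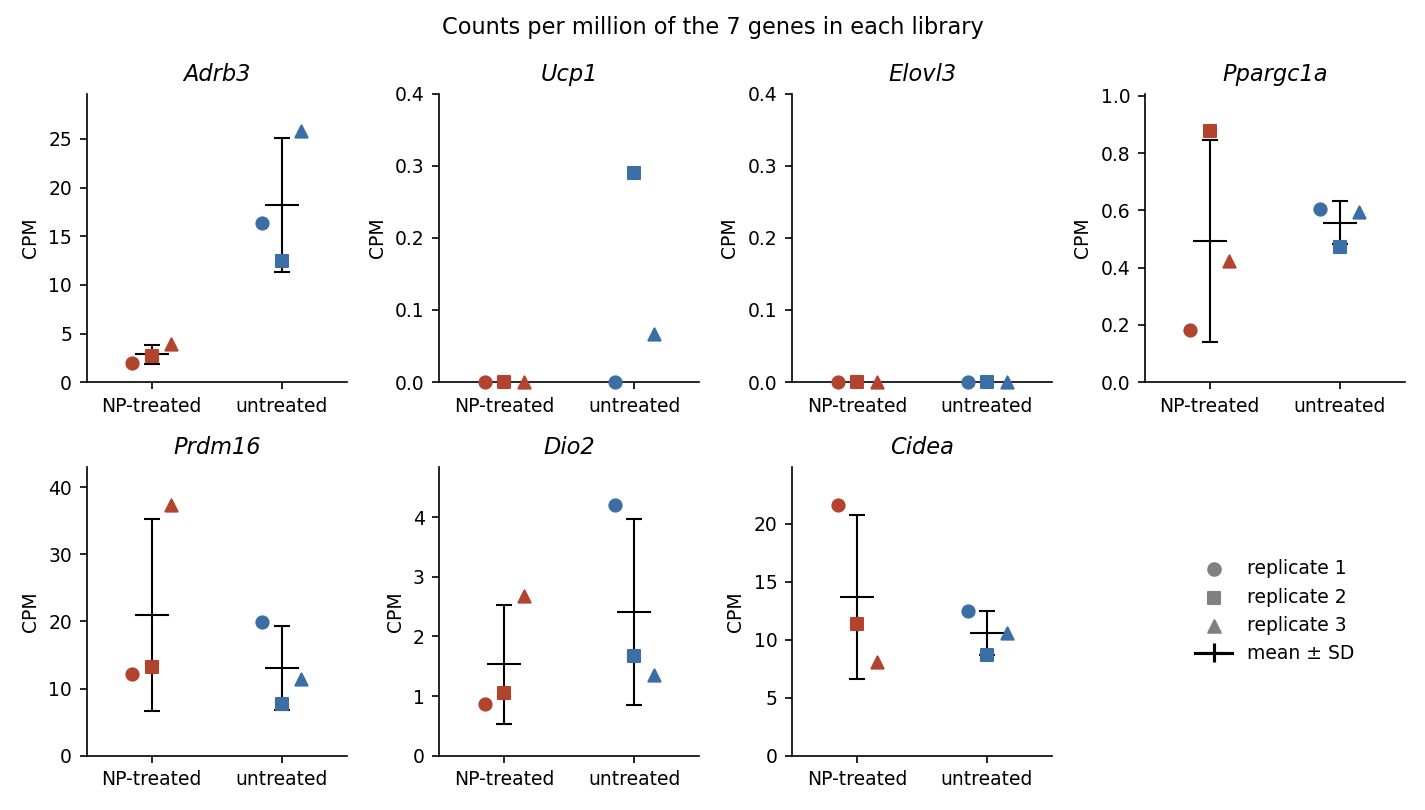
CPM (TMM-scaled) of each gene in NP-treated (red) and untreated (blue) libraries; symbols mark replicates, and bars show mean and SD (n = 3 each) except for Ucp1 and Elovl3. Only the Adrb3 groups lie apart among the 5 tested genes, at 1.99 to 3.94 CPM in NP-treated and 12.5 to 25.8 CPM in untreated libraries, while Elovl3 is at 0 in all 6.

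On the FPKM scale, which divides by gene length so that genes can be compared, Adrb3 was at 0.638, 1.09 and 1.49 FPKM in NP-treated libraries and 6.37, 4.55 and 9.47 FPKM in untreated libraries. It averaged 1.07 ± 0.428 FPKM in NP-treated and 6.80 ± 2.49 FPKM in untreated aortas (mean ± SD, n = 3 libraries each). The labels do not say that these libraries came from separate rats. Adrb1, the main beta receptor of the heart, reached at most 0.736 CPM in NP-treated and 0.741 CPM in untreated libraries. It averaged 0.201 ± 0.224 FPKM in NP-treated and 0.319 ± 0.171 FPKM in untreated aortas, and its groups overlapped. Per length it lay below Adrb3 in every library.

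The defining genes of active brown fat were at or near the limit of detection. Ucp1 had 0 counts in each of the 3 NP-treated libraries, against 0, 8 and 2 counts in untreated replicates 1, 2 and 3. The untreated counts correspond to 0, 0.290 and 0.0661 CPM. Elovl3, an elongase of very long chain fatty acids that brown fat induces in the cold, had 0 counts in all 6 libraries. A count of 0 allows a level of up to 0.109 CPM in NP-treated replicate 1 and 0.109 CPM in untreated replicate 2, the highest such limit of each group, for counting error only. Pooled over libraries, Ucp1 held 0 counts in the NP-treated and 10 counts in the untreated group. Against a limit of 3 counts over the NP-treated group, the untreated level was 3.26-fold higher. This figure leaves out the counting error of the 10 counts and the spread between libraries, and the groups overlapped at 0. Untreated replicate 2 held 8 of those 10 counts, and without it both groups lay under that limit and no fold was given. Fewer genes had a count of 1 than of 2 in each library, 140 to 200 against 322 to 559, so what a single count stands for is not settled.

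Of 24 thermogenic effectors 21 passed the filter on low counts, and of 20 brown and beige markers 18 did. Ckmt2, a mitochondrial creatine kinase, and Cpn2 had 0 counts in all 6 libraries. Cox8b, a respiratory chain subunit of brown fat and striated muscle, reached 0.175 CPM in NP-treated and 0.0661 CPM in untreated libraries. Zic1, a transcription factor that marks classical brown fat of the mouse, was at 0 in NP-treated libraries and reached 0.132 CPM in untreated ones. Otop1 reached 0.0704 CPM in NP-treated and 0.145 CPM in untreated libraries. These are the 5 that did not pass. Other markers of the lists were detected, for example Slc36a2, Tbx1 and S100b at means of 1.93, 25.6 and 37.4 CPM in NP-treated and 10.4, 29.6 and 52.9 CPM in untreated aortas; Tbx1 and S100b were named after their values were seen. The name of the set thus describes what its genes do in fat, and its defining member Ucp1 was barely detected. The relative Ucp2, a mitochondrial carrier of immune and many other cells, was at 287 ± 39.6 FPKM in NP-treated and 312 ± 37.6 FPKM in untreated aortas. Ucp3, the relative of skeletal muscle and brown fat, was at 0.113 ± 0.0893 FPKM in NP-treated and 0.333 ± 0.222 FPKM in untreated aortas.

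Ppargc1a encodes PGC-1 alpha, the coactivator that raises mitochondrial and heat-production genes when cyclic AMP rises. It was at 0.181, 0.877 and 0.422 CPM in NP-treated libraries and 0.606, 0.471 and 0.595 CPM in untreated libraries. The groups overlapped, NP-treated replicates 1 and 2 holding the lowest and the highest value of all 6. These CPM values rest on only 5 to 25 counts in NP-treated and 13 to 18 counts in untreated libraries. The log2 fold change was -0.17 (95% interval -1.75 to 1.41), and without NP-treated replicate 1 it was 0.21. Ppargc1b, the related coactivator PGC-1 beta, averaged 1.66 ± 0.225 FPKM in NP-treated and 1.10 ± 0.407 FPKM in untreated aortas. It was the more abundant of the pair per length, since Ppargc1a averaged 0.148 ± 0.119 FPKM in NP-treated and 0.158 ± 0.0262 FPKM in untreated aortas.

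Promoter sequences are shown for Ppargc1a, the gene best known to be driven by cyclic AMP, and for Ucp1 and Elovl3, whose transcripts were at or near 0. They run from 250 bases before to 50 bases after a RefSeq start site in build GRCr8, on the gene's own strand, and were matched by symbol for 6 of the 7 genes; Adrb3 was not matched. Capitals mark the cyclic AMP response element TGACGTCA, the TATA box TATAAA and the E-box CACGTG, searched on both strands.
Ppargc1a, chr14:63634058-63634357, plus strand: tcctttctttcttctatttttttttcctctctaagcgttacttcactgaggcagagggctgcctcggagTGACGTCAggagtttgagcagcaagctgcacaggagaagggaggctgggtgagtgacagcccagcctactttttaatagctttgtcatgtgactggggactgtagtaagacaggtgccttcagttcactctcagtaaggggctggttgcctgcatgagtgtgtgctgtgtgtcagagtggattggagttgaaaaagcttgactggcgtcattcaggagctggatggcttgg
Ucp1, chr19:41721372-41721671, minus strand: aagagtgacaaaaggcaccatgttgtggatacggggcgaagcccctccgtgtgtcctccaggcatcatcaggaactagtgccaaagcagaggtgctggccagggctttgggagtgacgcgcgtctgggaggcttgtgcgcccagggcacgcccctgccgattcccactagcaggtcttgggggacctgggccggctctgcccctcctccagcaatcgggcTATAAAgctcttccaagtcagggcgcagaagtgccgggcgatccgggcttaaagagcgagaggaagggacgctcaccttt
Elovl3, chr1:254938481-254938780, plus strand: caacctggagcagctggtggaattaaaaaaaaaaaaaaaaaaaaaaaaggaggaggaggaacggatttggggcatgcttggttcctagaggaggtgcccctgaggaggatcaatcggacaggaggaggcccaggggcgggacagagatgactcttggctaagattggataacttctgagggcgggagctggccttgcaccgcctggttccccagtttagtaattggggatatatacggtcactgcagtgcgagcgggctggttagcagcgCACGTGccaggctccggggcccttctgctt

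The full response element began 181 bases before the Ppargc1a start and was in none of the other 5 promoters matched. It was present in 1.83% of all 33469 promoters of this length. The core TGACG, which the full element contains, was in the Ppargc1a and Ucp1 promoters and in 21.2% of all promoters. In Ucp1 the TATA box began 30 bases before the start, Dio2 held one 220 bases before its start, and 14.2% of all promoters held one. The E-box of Elovl3 began at base 21 of the transcript, against 6.42% of all promoters with this motif. The nuclear receptor site AGGTCA was in 16.2% of all promoters, and a direct repeat of it with 1 base between in 0.054%; neither was in the windows of these 6 genes. The CCAAT box was in 5 of the 6, all but Ucp1, and in 37.5% of all promoters. These matches describe the letters of the windows only, and binding was not measured.

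Prdm16 is a zinc finger factor that drives the brown fat programme in precursor cells, and arterial endothelium and smooth muscle are also known to use it. Prdm16 was at 12.2, 13.3 and 37.4 CPM in NP-treated libraries and 19.97, 7.68 and 11.5 CPM in untreated libraries. NP-treated replicate 3 was the highest of all 6 and the groups overlapped. The log2 fold change was 0.68 (95% interval -0.56 to 1.93), and without NP-treated replicate 3 it was -0.04. The FPKM values set that library still further apart, at 1.06, 1.45 and 5.59 FPKM in NP-treated and 2.16, 0.782 and 1.13 FPKM in untreated libraries. The transcript length implied by counts and FPKM was 10277, 9975 and 6770 bases in NP-treated libraries and 9561, 9796 and 10011 bases in untreated libraries. The ratio of the highest to the lowest was 1.52, and a ratio above 1.5 was found in 0.904% of 13712 genes with at least 20 counts in every library. The authors' FPKM thus used a shorter Prdm16 length in NP-treated replicate 3 than in the other 5 libraries. For Adrb3, Cidea and Dio2 the same ratio was 1.05, 1.03 and 1.03.

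Dio2, the deiodinase that turns thyroxine into active thyroid hormone inside brown fat cells, was at 0.870, 1.05 and 2.67 CPM in NP-treated libraries. In untreated libraries it was at 4.21, 1.67 and 1.35 CPM. The groups overlapped, and untreated replicate 1 was the highest of all 6. The log2 fold change was -0.65 (95% interval -2.18 to 0.87), and without untreated replicate 1 it was 0.02. Dio1, the deiodinase of liver and kidney, had at most 5 counts in NP-treated and at most 4 counts in untreated libraries. Dio2 and Prdm16 were both highest within their group in NP-treated replicate 3 and untreated replicate 1. Those libraries also had the highest sum of 5 sympathetic neuron markers, 113 CPM in NP-treated replicate 3 and 125 CPM in untreated replicate 1. The sum was 52.5 and 12.1 CPM in NP-treated replicates 1 and 2, and 12.6 and 5.38 CPM in untreated replicates 2 and 3. Endothelial markers, of which 4 of 5 were measured, summed to 340, 937 and 1209 CPM in NP-treated libraries and 743, 596 and 763 CPM in untreated libraries. Fibroblast markers summed to 8991, 11317 and 19916 CPM in NP-treated and 16129, 14126 and 15592 CPM in untreated replicates 1, 2 and 3. The highest fibroblast sum of each group thus also lay in NP-treated replicate 3 and untreated replicate 1. The part of nerve, fibroblast or endothelial RNA in the Dio2 and Prdm16 values was not tested.

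Cidea encodes a lipid droplet protein that is abundant in brown fat of the mouse. It was at 21.7, 11.4 and 8.06 CPM in NP-treated libraries and 12.5, 8.66 and 10.5 CPM in untreated libraries. NP-treated replicate 1 was the highest of all 6 and NP-treated replicate 3 the lowest. The log2 fold change was 0.37 (95% interval -0.53 to 1.28), and without NP-treated replicate 1 it was -0.13. Its relative Cidec, which builds the large droplets of white fat cells, was at 3.63, 23.3 and 13.8 CPM in NP-treated libraries and 38.3, 56.1 and 55.3 CPM in untreated libraries. The Cidec groups did not overlap, with a log2 fold change of -1.88 (SE 0.59), while the Cidea groups did. As a share of the summed FPKM of Cidea, Cideb and Cidec, Cidea held 95.1%, 59.4% and 63.4% in NP-treated libraries and 49.2%, 31.7% and 36.9% in untreated libraries. The library with the fewest adipocyte marker counts, NP-treated replicate 1, was thus the library with the most Cidea. It also had the highest sum of 5 macrophage markers, 2740 CPM, against 1409 to 1888 CPM in the other NP-treated and 1835 to 2346 CPM in the untreated libraries. Its sums of smooth muscle, endothelial and fibroblast markers, 1838, 340 and 8991 CPM, were the lowest of all 6 libraries. The part of this cell makeup in the Cidea values was not tested.

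**Figure D2:**
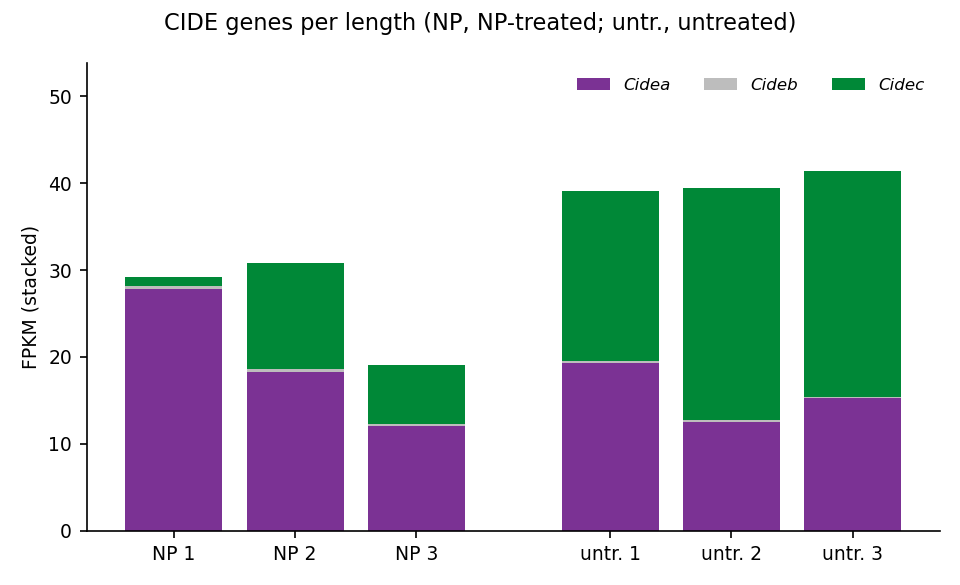
Stacked FPKM of the 3 CIDE genes in each library, NP-treated libraries left of untreated ones. Cidea takes 59.4% to 95.1% of the total in NP-treated and 31.7% to 49.2% in untreated libraries, and most of the rest is Cidec.

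**Figure D3:**
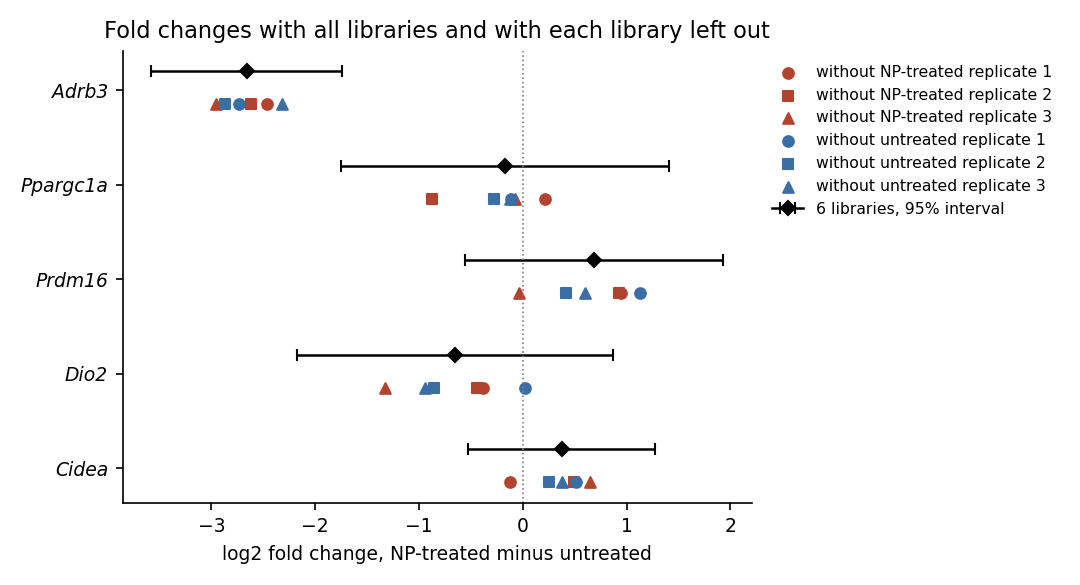
Log2 fold change (NP-treated minus untreated) of the 5 tested genes with all 6 libraries (black, 95% interval) and with each library left out (coloured symbols). Adrb3 stays between -2.96 and -2.32, while Ppargc1a, Prdm16, Dio2 and Cidea each cross 0 when 1 library is left out.

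Per length, Cidea was the most abundant of the 7 in both groups, at 12.1 to 27.8 FPKM in NP-treated and 12.5 to 19.3 FPKM in untreated libraries. In untreated libraries Adrb3 came next at 4.55 to 9.47 FPKM, without overlap with Cidea. Dio2 followed at 1.83 to 6.07 FPKM and Prdm16 at 0.782 to 2.16 FPKM, and in this order each of these overlapped its neighbour. In NP-treated libraries Dio2 lay at 1.05 to 3.76 FPKM, Prdm16 at 1.06 to 5.59 FPKM and Adrb3 at 0.638 to 1.49 FPKM. These 3 ranges overlapped one another, so no order is given among them, and none overlapped Cidea. The highest Prdm16 value is that of NP-treated replicate 3, with the shorter implied length. Ppargc1a lay below them in both groups, at 0.0435 to 0.278 FPKM in NP-treated and 0.129 to 0.181 FPKM in untreated libraries.

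To set the genes beside the fat signal, an adipocyte score was taken as the mean log2 CPM of 19 adipocyte genes, each centred on its mean over the 6 libraries. It was -1.55, -0.08 and -0.47 in NP-treated replicates 1, 2 and 3, and 0.75, 0.69 and 0.66 in untreated replicates 1, 2 and 3. The difference in score was -1.40 on the log2 scale. When the list mean was subtracted from each gene's log2 CPM, Adrb3 averaged -3.79 ± 0.58 in NP-treated and -2.57 ± 0.55 in untreated libraries (mean ± SD, n = 3 each). Adrb3 was therefore still lower in NP-treated libraries relative to the list, by -1.22, and the groups did not overlap. That difference depended on the genes used for fat, at -0.42 relative to Adipoq alone and -0.20 relative to Plin1 alone. The other 4 genes went the opposite way relative to the list, by 1.67 for Cidea, 1.99 for Prdm16, 1.05 for Ppargc1a and 0.78 for Dio2. A gene with equal log2 CPM in both groups would differ by 1.40 on this scale.

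**Figure D4:**
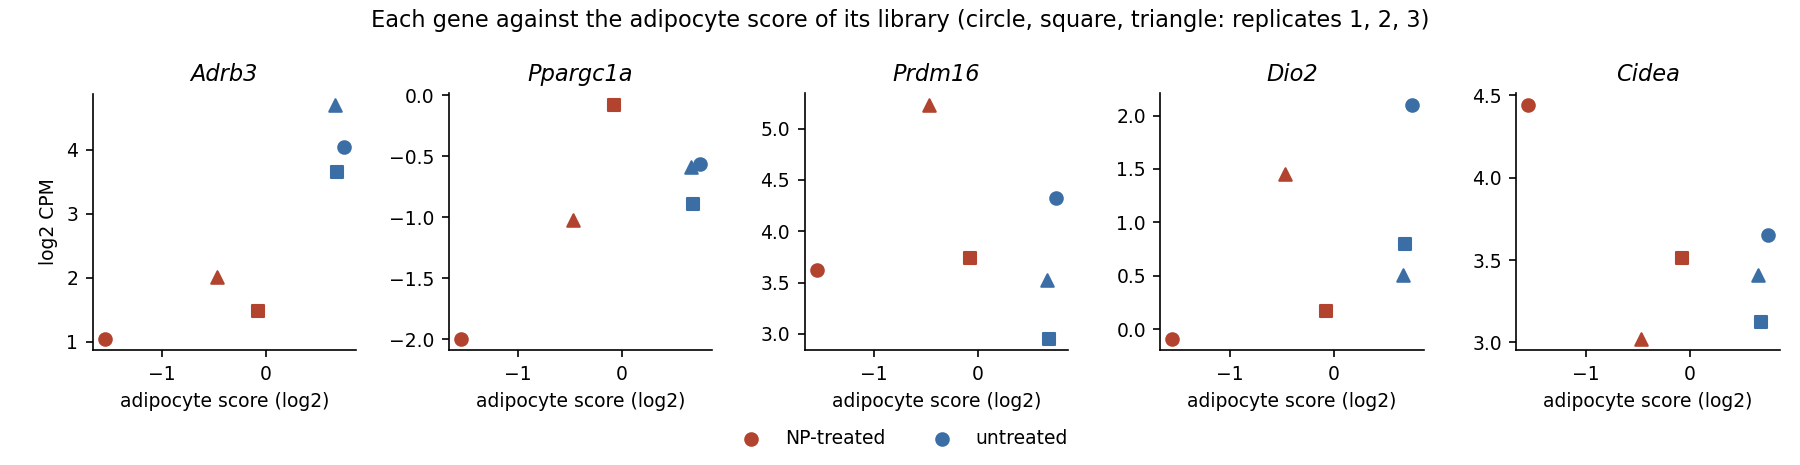
Log2 CPM of each tested gene (y axis) against the adipocyte score of the same library (x axis, log2), with NP-treated libraries in red and untreated ones in blue. All 3 untreated scores lie between 0.66 and 0.75, and NP-treated replicate 1 has the lowest score, -1.55, with the lowest Adrb3, Ppargc1a and Dio2 and the highest Cidea.

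The genes whose pattern over the 6 libraries was most like each of the 5 were ranked by Pearson's r of log2 CPM among 11786 tested genes. For Adrb3 these were Cat (catalase), Csad, Srebf1, Calml3 and Fgf10, with r of 0.983, 0.981, 0.979, 0.975 and 0.971. Srebf1, a driver of fatty acid synthesis, was at 52.2, 55.2 and 56.5 CPM in NP-treated and 84.0, 82.1 and 112 CPM in untreated libraries. For Prdm16 they were Gsk3b, Fstl1, Gja4, Klhl31 and Dcaf10, with r from 0.990 to 0.997. Gja4, the gap junction protein connexin 37 of arterial endothelium, was at 41.7, 51.1 and 123 CPM in NP-treated and 66.1, 32.97 and 45.9 CPM in untreated libraries, so that NP-treated replicate 3 stood out in it as in Prdm16. For Dio2 they were Slc2a10, Loxl4, Lancl2, Olr63 and Cnrip1 (r of 0.972 to 0.986). For Ppargc1a they were Phlpp1, Herc6, Steap4, Zfp157 and Fgf7 (0.990 to 0.995), and for Cidea Snrnp27, Ly49s7, Cept1, Msl3 and Vps26c (0.989 to 0.992). With only 6 libraries, 12 genes reached an r of 0.95 with Adrb3 and 109 did so with Cidea, so these ranks are a description.

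The wider pathway was read in 11 gene lists without the 7 genes, some of which share members. No member of any list was called by edgeR over all genes, while DESeq2 called Pck1, Gpd1, Acsl1 and Retn of the adipocyte list, and the median log2 fold change of all tested genes was 0.04. A fold below 1 was found in 44.4% of all tested genes, which is the share to set beside the counts of each list. Of the 27 tested genes of the beta-adrenergic and cyclic AMP pathway, 17 had a fold below 1 and 10 above, with a median log2 fold change of -0.09. Without NP-treated replicate 1 this turned to 11 below and 16 above, with a median of 0.16, and without untreated replicate 1 to 13 below and 14 above. Prkar2b, the regulatory subunit of protein kinase A that prevails in fat, was at 20.6, 28.2 and 35.4 CPM in NP-treated and 45.3, 53.8 and 50.2 CPM in untreated libraries. It alone of the 27 had groups that did not overlap, beside 3.2% of all tested genes with all NP-treated values below. Its log2 fold change was -0.83 (SE 0.23). Gnas, the stimulatory G protein, lay at -1.11 on that scale (SE 0.65). The receptor kinase Grk2 had -0.37 (SE 0.20) and the arrestin Arrb1 0.36 (SE 0.24).

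Transcription regulators of brown and beige fat were divided, with 12 of 29 tested genes below a fold of 1, 17 above and a median log2 fold change of 0.04. Without untreated replicate 2 there were 18 below and 11 above, and without NP-treated replicate 3 there were 16 below and 13 above. Pparg, the master regulator of fat cells, averaged 24.9 ± 6.39 CPM in NP-treated and 33.6 ± 2.34 CPM in untreated aortas, and the groups overlapped. Ppargc1b and the corepressor Ctbp2 lay wholly above in NP-treated libraries, beside 2.48% of all tested genes. Their log2 fold changes were 0.61 (SE 0.35) and 0.26 (SE 0.15). Zfp516, a cold-induced activator of Ucp1 in the mouse, had 0.76 (SE 0.41). Ebf2, which marks brown and beige precursors, was at 1.38, 10.1 and 6.48 CPM in NP-treated and 11.01, 4.96 and 9.02 CPM in untreated libraries; it was named after its values were seen.

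Of 21 tested thermogenic effectors, 13 had a fold below 1 and 8 above (median log2 fold change -0.10). Groups did not overlap in 4, all lower in NP-treated libraries, beside 3.2% of all tested genes, and without untreated replicate 2 there were 10 genes below and 11 above. Kcnk3, a potassium channel of brown fat and vascular smooth muscle, averaged 11.6 ± 7.96 CPM in NP-treated and 25.6 ± 2.71 CPM in untreated aortas. The log2 fold changes of Cpt1b, which admits fatty acids to mitochondria, of Ucp3 and of the droplet protein Plin5 were -0.77, -1.57 and -1.31, and each of these had overlapping groups. Ucp3 was at -0.92 without untreated replicate 1 and -2.22 without NP-treated replicate 3, and Plin5 at -2.39 without NP-treated replicate 2. Brown and beige markers gave 12 below and 6 above of 18 tested, with a median of -0.28 and 5 that did not overlap, all lower in NP-treated libraries, beside the same 3.2%. Without NP-treated replicate 1 there were 9 below and 9 above. Besides Cidec, the lowest p-values there belonged to the amino acid carrier Slc36a2, the nucleoside carrier Slc29a1 and the carbonic anhydrase Ca4. Slc36a2 averaged 1.93 ± 2.13 CPM in NP-treated and 10.4 ± 2.90 CPM in untreated aortas, and Slc29a1 41.4 ± 13.5 CPM in NP-treated and 82.0 ± 11.7 CPM in untreated aortas. The beige marker Tmem26, named after its values were seen, leaned the other way, at 15.1, 5.72 and 6.30 CPM in NP-treated and 6.26, 3.44 and 5.29 CPM in untreated libraries.

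Thyroid hormone genes other than Dio2 gave 6 below and 3 above of 9 tested (median log2 fold change -0.20). Thrsp, a thyroid-responsive gene of fat synthesis, was at 4.35, 73.3 and 37.4 CPM in NP-treated and 134, 190 and 93.2 CPM in untreated libraries, without overlap. The transporter Slc16a10 (-1.08, SE 0.48, on the log2 scale) also did not overlap, and the hormone-binding protein Crym had -1.11 with overlapping groups. Over all tested genes, 3.2% lay wholly below in NP-treated libraries. Among secreted factors of thermogenic fat, 6 of 15 had a fold below 1 and 9 above (median 0.29). Nrg4, a growth factor that brown fat releases, averaged 0.399 ± 0.339 CPM in NP-treated and 1.41 ± 0.426 CPM in untreated aortas. Slit2 lay the other way, at 23.9 ± 3.67 CPM in NP-treated and 15.9 ± 3.45 CPM in untreated aortas, and neither overlapped. Of all tested genes, 2.48% lay wholly above in NP-treated libraries. Lgals3, the macrophage lectin galectin-3, and the chemokine Cxcl14 had log2 fold changes of 0.84 and 1.29 with overlapping groups. Lgals3 was at 0.22 without NP-treated replicate 1, the library with the highest macrophage marker sum. Cxcl14 was at 51.9 CPM in NP-treated replicate 1, and without that library its log2 fold change was -0.73.

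Elongases and their partner enzymes gave 4 below and 7 above of 11 tested (median log2 fold change 0.13), and without NP-treated replicate 1 there were 6 below and 5 above. Elovl1 and Elovl5 made up nearly all of the elongase signal per length. Elovl1 was at 126 ± 28.3 FPKM in NP-treated and 116 ± 8.13 FPKM in untreated aortas, and Elovl5 at 28.6 ± 10.2 FPKM in NP-treated and 25.9 ± 7.03 FPKM in untreated aortas. Tecr, the last reductase of the elongation cycle, did not overlap, with a log2 fold change of -0.45 (SE 0.22). Elovl4, Elovl2 and Hsd17b12 had 1.72, 1.25 and 0.28 with overlapping groups. Elovl4 was at 0.35 without NP-treated replicate 1 and 2.93 without untreated replicate 1. Elovl2 was at 0.28 without NP-treated replicate 3 and 2.99 without untreated replicate 1, and Hsd17b12 at -0.13 without NP-treated replicate 1. In the list of CIDE and lipid droplet genes, 9 of 14 had a fold below 1 and 5 above (median -0.36), and 6 did not overlap, all lower in NP-treated libraries, beside 3.2% of all tested genes. Of these 6, Plin1, Lipe and Pnpla2 are also in the adipocyte list, and Cidec is among the adipocyte markers summed above. Plin1, which coats the droplet and guards it from lipases, was at 7.91, 45.4 and 62.3 CPM in NP-treated and 153, 140 and 162 CPM in untreated libraries. Pnpla2, the first lipase of fat breakdown, was at 84.8, 98.8 and 85.7 CPM in NP-treated and 136, 134 and 231 CPM in untreated libraries. Hilpda, a hypoxia-induced inhibitor of that lipase, was at 1.47 (SE 0.65) with overlapping groups, and at 0.33 without NP-treated replicate 1.

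General adipocyte markers showed the strongest lean of the 11 lists. Of 19 tested genes 17 had a fold below 1 and 2 above, with a median log2 fold change of -1.04 beside 0.04 over all genes. The 2 above were Fabp4 and Lpl, with log2 fold changes of 0.38 and 0.56 and overlapping groups. Both were highest in NP-treated replicate 1, at 2228 CPM for Fabp4 and 1884 CPM for Lpl. Groups did not overlap in 11 of the 19, all lower in NP-treated libraries, beside 3.2% of all genes, and 10 had an unadjusted p under 0.05. With each library left out in turn the count below 1 stayed between 16 and 18. The smallest p-values belonged to Acsl1, Retn, Pck1 and Gpd1, with log2 fold changes of -1.57, -1.87, -3.37 and -2.65. This list had been seen to be lower in earlier results of these libraries and is no independent evidence of its direction. Adrb3, at -2.66, was lower than the list median of -1.04 and than every gene of the list except Pck1.

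**Figure D5:**
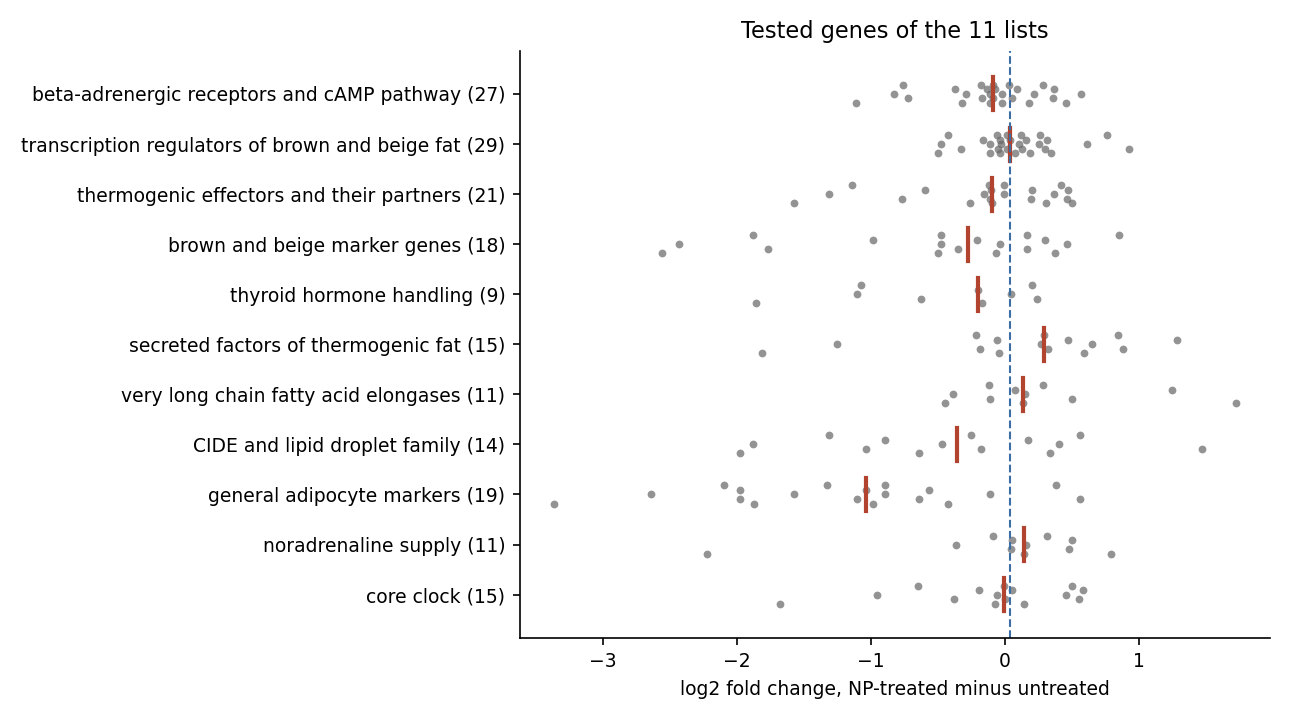
Log2 fold change (NP-treated minus untreated) of each tested gene (grey points) in the 11 lists, with the number tested in brackets, the list median as a red bar and the median of all genes, 0.04, as a dashed line. The adipocyte list has the lowest median, -1.04, and the other list medians lie between -0.36 and 0.29.

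Genes of noradrenaline supply gave 3 below and 8 above of 11 tested, 9 below and 2 above without NP-treated replicate 3, and 8 below and 4 above of 12 without untreated replicate 2. Dbh, which makes noradrenaline, was at 10.9, 0.807 and 41.1 CPM in NP-treated and 29.1, 1.38 and 0 CPM in untreated libraries. Its spread within each group was far wider than the difference between them. Slc18a2, the vesicle carrier of monoamines, had a log2 fold change of 0.14 with overlapping groups. Slc22a3, a carrier that clears noradrenaline outside neurons, including into fat cells, was at 0.363, 3.68 and 1.41 CPM in NP-treated and 7.81, 11.4 and 6.28 CPM in untreated libraries. It was the only tested gene of this list whose groups did not overlap (log2 fold change -2.22, SE 0.75). Of all tested genes, 3.2% lay wholly below in NP-treated libraries.

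Core clock genes, read because the clock is known to gate Ucp1 and Dio2 in the mouse, gave 8 below and 7 above of 15 tested, with 5 to 10 below when each library was left out in turn. Nr1d1, a clock repressor, was at 7.76, 75.0 and 62.3 CPM in NP-treated and 8.45, 211 and 245 CPM in untreated libraries. The lowest Nr1d1 value of each group lay in replicate 1. Dbp, a clock output factor, was at 21.8, 179 and 33.9 CPM in NP-treated and 16.9, 210 and 228 CPM in untreated libraries. It was likewise lowest in replicate 1 of each group, and NP-treated replicate 3 lay near NP-treated replicate 1. Arntl, named after its values were seen, was at 26.1, 6.17 and 25.9 CPM in NP-treated and 40.2, 9.82 and 8.16 CPM in untreated libraries, so the libraries of 1 group differed from one another in clock genes. Cry1 and Rora had log2 fold changes of 0.50 and 0.58. Whether collection time moved Dio2 or Ppargc1a was not tested.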

How the data were processed

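Total RNA of abdominal aorta was sequenced in 6 libraries, 3 NP-treated and 3 untreated. The table deposited by the authors gives raw read counts and FPKM values per gene. The submitters' processing notes list the aligner HISAT2 2.0.4, and SOAPnuke, a read filter, appears in the series' design text. No counting tool, build, annotation or strandedness is named there (not given in the sources used here). FPKM values were computed by the authors and deposited beside the counts.

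Counts were filtered with filterByExpr (minimum count 10) and tested with edgeR 4.0.16 in R 4.3.3, with TMM scaling, group as the only term, and Benjamini-Hochberg adjustment over 16522 genes at 0.05; the code was tested on simulated data. Log2 fold changes are NP-treated minus untreated, and each standard error is the fold change divided by the root of F. CPM used TMM-scaled totals, and log2 CPM a prior count of 2. The 95% intervals of fold changes rest on the spread between libraries, while the limits for a count of 0 (3 counts) cover counting error only. The labels do not say that libraries came from separate rats, so p-values measure the spread between samples, which may be technical; with 3 against 3, an exact permutation test cannot go below 0.1. The labels give no batch.

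The genes and lists were chosen with earlier results of these data known. Named from each list were up to 4 genes with the smallest p-values; likeness ranked genes with a mean of at least 2 CPM. Dio3 and Cd36 were not matched. Some genes that the rule names are not reported here. Alternatives were DESeq2 1.42.0, limma 3.58.1 (voom, with and without library weights, and log2(FPKM + 1)), other size factors, no filter, the replicate number as a block, a prior count of 0.5, and each library left out. Leave-out counts for the lists were added after the data were seen.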

Additional observations from a re-analysis of the deposited data

How the results depend on the processing

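The count of called genes was 0 in the edgeR fits with DESeq2 size factors, no filter, the replicate block (310 genes at an unadjusted p under 0.05) and each library left out (0 to 0), and in both limma-voom fits. It was 29 with DESeq2 (28 lower, 1 higher) and 1 with limma on log2(FPKM + 1). DESeq2 called Adrb3 (adjusted p = 9.90e-07), Pck1 (5.41e-04), Acsl1 (0.00208), Gpd1 (0.00715) and Retn (0.0133) among the genes named. The main edgeR fit gave Adrb3 an adjusted p of 0.925. Adrb3 and the adipocyte list were chosen with their difference in these libraries known, so these p-values lend it no support. Deviations of same-numbered libraries from their group means correlated at -0.17, 0.07 and -0.27, and those of other pairs at up to 0.37. With 3 libraries per group this cannot show whether the numbers pair the samples. The cause of the differences between tools was not tested. Adrb3 kept its direction under all alternatives run, and its log2 fold change was -1.88 with limma on log2(FPKM + 1), where the pseudocount shrinks low values. With each library left out in turn, the log2 fold change ranged from -0.13 to 0.64 for Cidea, from -0.88 to 0.21 for Ppargc1a, from -1.32 to 0.0230 for Dio2, from -0.0359 to 1.13 for Prdm16, from -0.73 to 1.75 for Cxcl14, from -0.13 to 0.48 for Hsd17b12, from -0.79 to 4.69 for Dbh and from -0.28 to 0.40 for Slc18a2. The same range was -1.85 to -0.81 for Kcnk3, -3.84 to -1.94 for Slc36a2, -3.54 to -2.07 for Ca4, -2.73 to -1.33 for Thrsp, -2.70 to -1.37 for Nrg4, -3.26 to -1.74 for Slc22a3, -2.52 to -1.43 for Cidec, -1.57 to -0.38 for Crym and -2.45 to -0.52 for Dbp. Cxcl14 was at -0.24 in limma-voom with library weights. Relative to the adipocyte list Adrb3 lay between -1.45 and -0.89 over the same leave-outs. Ucp1, Elovl3 and Ppargc1a had 0 to 25 counts per library. Other genes named above also came near 0 in single libraries. NP-treated replicate 1 was at 0.0725 CPM for Ca4, 0.109 CPM for Nrg4 and 0.0725 CPM for Ucp3. Plin5 was at 0.106 CPM in NP-treated replicate 3, and Elovl2 at 0 CPM in untreated replicate 2. The size of difference that such low counts can show was not tested.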
